A study of Drosophila melanogaster with 2 samples.

Results

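Gypsy12, McClintock and flea are 3 families of LTR retrotransposons of *Drosophila melanogaster*. An insertion of each had a level of its own in ovaries because some of its reads mapped to a single place in the genome. The members are all entries of the deposited lists whose name carries one of these families, and they amount to 5 insertions of the 184 insertions and 296 features listed. With uniquely mapped reads 1 insertion of each family was listed, namely gypsy12{}2214, McClintock{}1079 and flea{}4150. With up to 10 mappings per read those 3 were listed again, together with gypsy12{}3720 and McClintock{}1478. The members were chosen by name from features that the authors' lists give as higher or lower in this same comparison, that is, selected on the levels themselves, so levels and folds are given as a description.

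RNA was sequenced from ovaries of flies homozygous for z3-5967 and of flies heterozygous for it, 3 to 5 days old and kept at 25 °C. The allele changes CG5508, named minotaur (mino), and both groups carry at least 1 mutant copy, so no group without the mutation was used here. Whether both groups carried the same insertions, in the same number of copies, was not tested. There was 1 library per genotype, and no difference below has a replicate check. In bulk ovaries, fewer cells of a type and less RNA per cell cannot be told apart. No list names mino, so its level could not be used to check the genotype labels.

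LTR retrotransposons copy themselves through an RNA intermediate, which is transcribed from the long terminal repeat at the start of the element and reverse transcribed into DNA. In fly ovaries they are held down by piRNAs, small RNAs bound by Piwi proteins that recognise transposon transcripts. The precursors of many piRNAs come from clusters, stretches of the genome packed with old transposon copies. By its title, the study concerns mino in the primary pathway, in which piRNAs are cut from such precursors. Copies of a family share stretches of sequence, though they can differ much in length, so a short read often matches several of them. A read that matches a single copy is what gives that copy a level of its own.

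Of the 3 insertions with uniquely mapped reads, McClintock{}1079 had the smallest adjusted p in the authors' deposited table. McClintock{}1079 (FBti0020190) held 290.5 normalized reads in homozygous ovaries and 13.9 in heterozygous ovaries, which are 336 and 12 reads. A normalized read is a read count divided by the size factor of its library. The fold, homozygous over heterozygous, was 20.9, with an exact 95% interval on the reads of 11.8 to 40.9. Such intervals hold the counting error of 1 library against 1 other and no variation between flies. The authors' deposited table gave an adjusted p of 7.76e-08 from their count test, with 1 library per genotype.

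Gypsy12{}2214 (FBti0060275) had the highest level of the 3 in both libraries. It held 384.8 normalized reads in homozygous and 48.6 in heterozygous ovaries, or 445 and 42 reads. Its fold was 7.92 (5.77 to 11.1), an interval that lies below that of McClintock{}1079 without overlap. The deposited adjusted p was 1.35e-05.

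Flea{}4150 (FBti0062211) was the lowest of the 3. It had 73.5 normalized reads in homozygous and 3.47 in heterozygous ovaries, or 85 and 3 reads. The fold of 21.2 rests on those 3 heterozygous reads, and its interval, 7.01 to 104.8, overlaps those of the other two. Its deposited adjusted p was 0.0561, near the largest value in the list, 0.0801.

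All 3 insertions were higher in homozygous ovaries, as were 71.2% of the 80 features listed as higher or lower with uniquely mapped reads. All 3 were also past 4-fold, as were 75.4% of the 57 higher features. The lists themselves chose the members, so nothing is read from these counts. Among the 20 listed insertions, whose median fold was 21.1, flea{}4150 ranked 10, McClintock{}1079 ranked 11 and gypsy12{}2214 ranked 16 by fold.

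Set per kilobase of the insertion, McClintock{}1079 came first with uniquely mapped reads in homozygous ovaries, while the order in heterozygous ovaries stayed as above. McClintock{}1079 had 45.0 normalized reads per kb in homozygous ovaries (counting interval 40.4 to 50.1) and gypsy12{}2214 had 38.5 (35.0 to 42.2), a ratio of 1.17 with an exact interval on the reads of 1.01 to 1.35. Flea{}4150 had 16.9 per kb (13.5 to 20.9), and gypsy12{}2214 exceeded it 2.28 times (1.8 to 2.9). In heterozygous ovaries the order was gypsy12{}2214 with 4.86 per kb (3.50 to 6.56), McClintock{}1079 with 2.15 (1.11 to 3.76) and flea{}4150 with 0.797 (0.164 to 2.33). Here gypsy12{}2214 exceeded McClintock{}1079 2.26 times (1.17 to 4.71), and the ratio of McClintock{}1079 to flea{}4150, 2.70, had an interval that includes 1 (0.729 to 14.9). The whole length of each insertion was used, and the length where a read can map uniquely was not analysed. With up to 10 mappings, gypsy12{}2214 came first in homozygous ovaries, with 463.4 per kb (451.0 to 475.9), against 266.5 (254.9 to 278.5) for McClintock{}1079. The homozygous order per kb thus differed between read treatments.

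**Figure D1:**
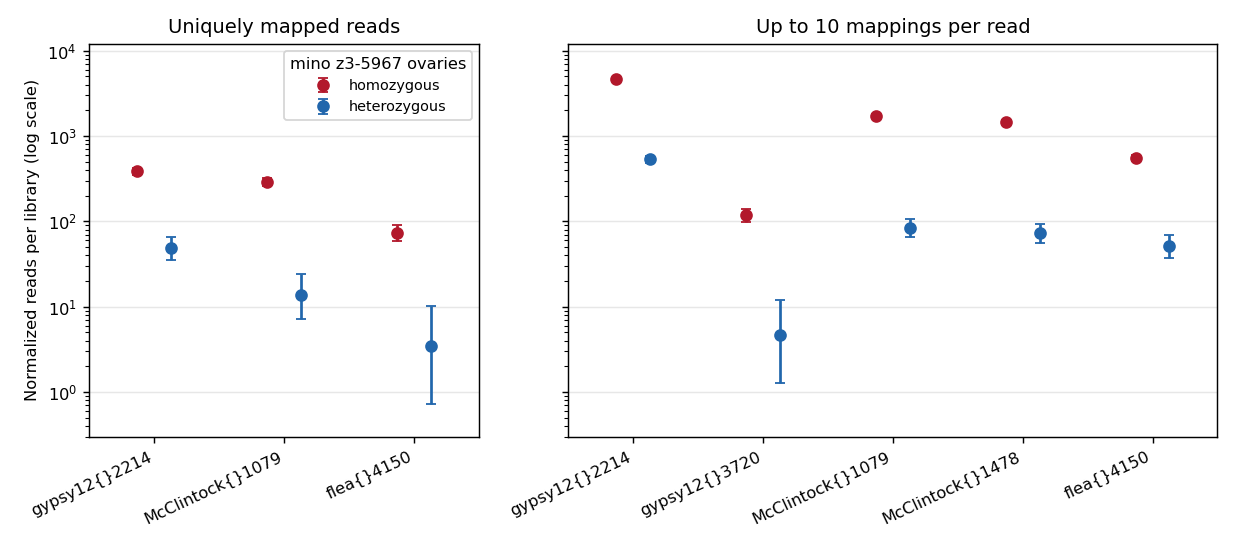
Normalized reads per library (log scale) of each insertion in homozygous (red) and heterozygous (blue) ovaries, with uniquely mapped reads on the left and with up to 10 mappings on the right; points are single libraries and bars are exact 95% Poisson intervals. Every red point lies above its blue one, from 73.5 against 3.47 for flea{}4150 with uniquely mapped reads to 4634 against 531.9 for gypsy12{}2214 with up to 10 mappings.

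Counting reads with up to 10 mappings raised every level, because reads that match several places, in the same or in other copies, then entered. The per-library columns there are headed with another gene's name and were not used. The levels below are those that the mean and fold of the authors' deposited table imply. McClintock{}1079 then had 1719 normalized reads in homozygous and 84.6 in heterozygous ovaries, a fold of 20.3 in the authors' deposited table. Gypsy12{}2214 had 4634 and 531.9, a fold of 8.71 in that deposited table. Flea{}4150 had 555.7 and 51.0, a fold of 10.9 in that deposited table.

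The fold of McClintock{}1079 was nearly the same under both read treatments, while that of flea{}4150 was lower with up to 10 mappings. Each fold with up to 10 mappings lay inside the counting interval of the fold with uniquely mapped reads, as did those of 12 of the 17 other insertions listed both ways. For flea{}4150 that interval is so wide that it says little. On the log2 scale the uniquely mapped fold minus the fold with up to 10 mappings was 0.04 for McClintock{}1079, −0.14 for gypsy12{}2214 and 0.96 for flea{}4150. Among the other 17 insertions the same difference ran from −2.02 to 1.12, with a median of 0.14.

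Both treatments count the uniquely mapped reads, so the reads with 2 to 10 mappings were also taken alone, by subtracting the unique reads. The 2 sets then hold no read in common, though they come from the same libraries. McClintock{}1079 had 1656 such reads in homozygous and 61 in heterozygous ovaries, a fold of 20.2 (15.7 to 26.6). Gypsy12{}2214 had 4925 and 417, a fold of 8.80 (7.96 to 9.74). Flea{}4150 had 559 and 41, a fold of 10.2 (7.39 to 14.3). In this set the interval of McClintock{}1079 lay above those of the other two, whose intervals overlapped. The interval of flea{}4150 was narrower than that from its 3 unique heterozygous reads. The intervals of this set take each count as a separate read, and are too narrow if a read was counted repeatedly within an insertion.

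**Figure D2:**
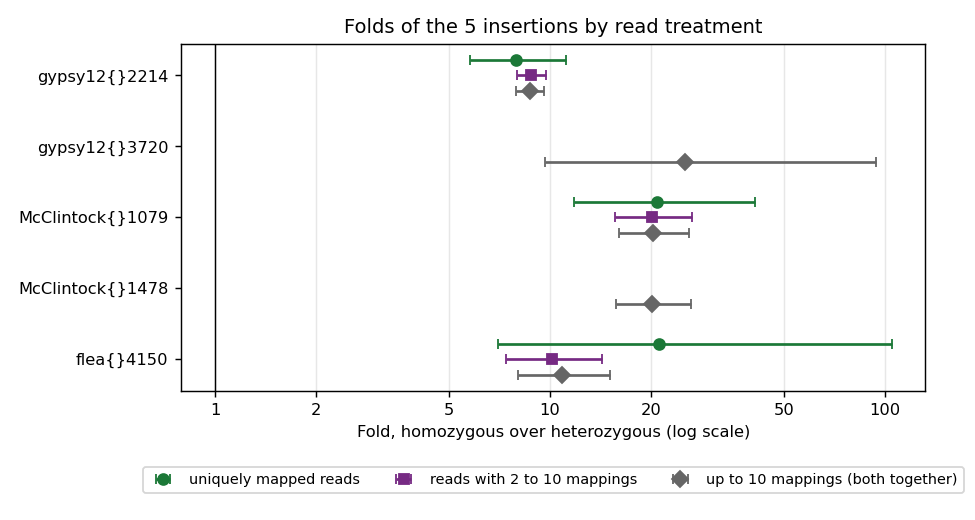
Folds of the 5 insertions, homozygous over heterozygous (log scale), with uniquely mapped reads, with reads of 2 to 10 mappings, and with both together; bars are exact 95% intervals on the reads and the line at 1 marks equal levels. McClintock{}1079 stays near 20 in all 3 sets, gypsy12{}2214 lies between 7.92 and 8.80, and flea{}4150 has 21.2 with uniquely mapped reads, 3 of them heterozygous, and 10.2 with the reads of 2 to 10 mappings.

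A small part of the counts of each insertion with up to 10 mappings came from unique reads. A read matching several places within the same insertion may have been counted at each of them, which was not tested. The unique share of distinct reads would then be larger than given here, and these intervals would be too narrow. In the homozygous library the unique share was 16.9% for McClintock{}1079 (exact interval 15.2 to 18.6), 13.2% for flea{}4150 (10.7 to 16.1) and 8.29% for gypsy12{}2214 (7.56 to 9.06). The heterozygous shares were 16.4% (8.79 to 27.0), 6.82% (1.43 to 18.7) and 9.15% (6.67 to 12.2) in the same order. For each insertion the intervals of the libraries overlapped. The other 17 insertions had homozygous shares from 4.16% to 99.3%, with a median of 36.1%.

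McClintock{}1478 (FBti0020402) was listed with up to 10 mappings alone, next to the other long copy in level. The mean and fold of the authors' deposited table imply 1477 normalized reads in homozygous and 73.0 in heterozygous ovaries. Its fold was 20.2 in the authors' deposited table, against 20.3 for McClintock{}1079. The copies can share reads with 2 to 10 mappings, and how many they shared was not analysed, so these are not taken as independent measurements of the family.

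The copies of gypsy12 were less alike in level. Gypsy12{}3720 (FBti0061781) had 117.4 normalized reads in homozygous and 4.64 in heterozygous ovaries, implied in the same way, and a fold of 25.3 in the authors' deposited table. That fold rests on 4 heterozygous reads, and the exact interval on the 136 and 4 reads was 9.67 to 94.3. For gypsy12{}2214 the interval with up to 10 mappings was 7.92 to 9.60, so the intervals of the family's copies just fail to meet. Both intervals take each count as a separate read. With 10 normalized reads added to each library (a pseudocount), the folds were 8.70 for gypsy12{}3720 and 8.57 for gypsy12{}2214. A difference in fold between these copies thus depends on the few heterozygous reads of gypsy12{}3720. The level of gypsy12{}3720 was 50.5 normalized reads per kb in homozygous ovaries, against 463.4 per kb for gypsy12{}2214.

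With up to 10 mappings the members were again all higher and all past 4-fold, as were 92.8% of the 292 listed features and 85.6% of the 271 higher ones. The largest deposited adjusted p of a member in the authors' table was 0.00103, that of gypsy12{}3720, from their count test with 1 library per genotype. The other 4 ranged from 1.03e-19 for McClintock{}1079 to 1.13e-08 for flea{}4150 in the authors' deposited table.

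The listed insertions are a small part of what the genome holds of these families. Positions were looked up by FlyBase identifier in the dm6 annotation, since the lists give none, and were not converted from the dm3 build of the authors. Of 8 annotated McClintock copies, 2 were listed (25.0%). These spanned 6450 and 6438 bp, and the 6 others 32 to 532 bp. These counts take copies with an FBti identifier, as the lists do. Copies with another kind of identifier, of which McClintock and flea have 2 each and gypsy12 has 1, were in no list and are left out. They are long, with 6453 bp for both of McClintock, 5029 and 5019 bp for flea and 10108 bp for gypsy12.

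Flea showed another picture. Of 29 annotated copies 1 was listed (3.45%), and it was not a full-length one. Flea{}4150 spans 4354 bp and ranks 15 in length. All 14 copies of at least 5000 bp were in neither list. Their number exceeds 10. If reads with more than 10 mappings were discarded, which the sources used here do not state, a read matching all of them was left out of both treatments. How many such reads there were was not analysed here. Nothing is known here of the levels of unlisted copies.

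Of 50 gypsy12 copies 2 were listed (4.0%), and 36 of the 50 were shorter than 1000 bp. Gypsy12{}2214 spans 10001 bp and gypsy12{}3720 spans 2323 bp. The 2 longer spans of the family, of 12076 and 16993 bp, were in neither list. On 2R lie 28 of the copies.

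**Figure D3:**
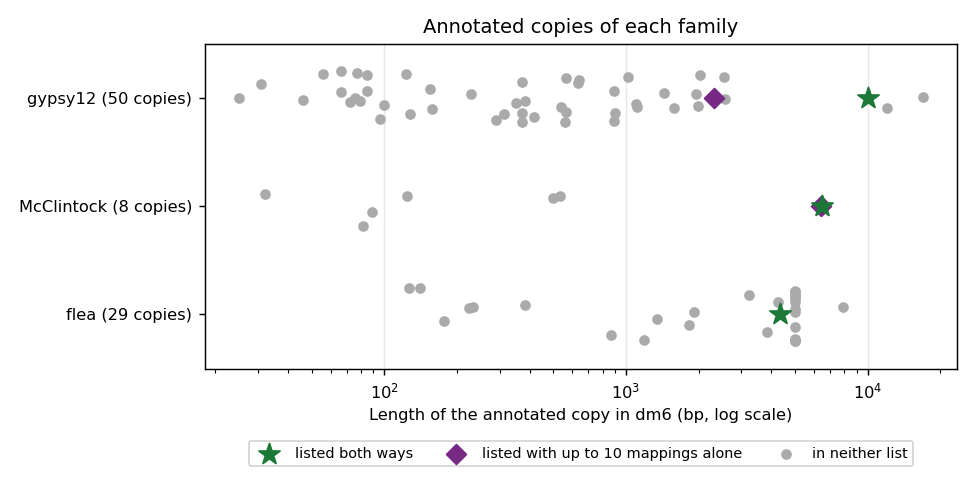
Length in dm6 (bp, log scale) of every copy of the 3 families annotated with an FBti identifier; stars mark copies listed under both read treatments, diamonds those listed with up to 10 mappings alone and grey points those in neither list. The listed McClintock copies are the longest of those plotted for their family, while the listed flea copy, at 4354 bp, is shorter than the 14 unlisted copies of at least 5000 bp.

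None of the 5 insertions overlapped an exon of a gene in dm6. McClintock{}1079, on 3L from 21372776 to 21379225 on the plus strand, lies between genes, 3275 bp before the start of the annotated span of rgn (regeneration), which was not listed. On its other side, 1511 bp away and on the opposite strand, lies I{}1078, an insertion of the non-LTR I element. I{}1078 was listed with up to 10 mappings, at 16.3-fold in the authors' deposited table with a mean of 571.9 normalized reads.

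McClintock{}1478, on chromosome 4 from 13649 to 20086 on the plus strand, lies wholly within the span of the pseudogene CR32010 on the opposite strand and between its exons. No other listed feature lay within 10 kb of it.

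Flea{}4150, on 3L from 23603360 to 23607713 on the minus strand, lies in an intron of AGO3, on the opposite strand. AGO3 encodes a Piwi protein of the ping-pong cycle, in which germline piRNAs are amplified, and its span in dm6 runs from 23554593 to 23689640. AGO3 was in none of the lists. Within 10 kb of flea{}4150 the annotation holds 14 other transposon copies, among them the short fragment McClintock{}5830, and none of them was listed.

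Gypsy12{}3720, on X from 22821838 to 22824160 on the plus strand, lies 156 bp from the span of fog, a gene of tissue folding in the embryo, which is on the opposite strand and was not listed. Its span contains 102 bp annotated as BS{}3638, an element of another family, so the reads of that stretch cannot be assigned.

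Gypsy12{}2214 lies on 2R from 6296669 to 6306669 on the minus strand, in a stretch dense with transposons. The span of Rt1b{}1666, on the opposite strand, covers it, as does that of roo{}1668, which was not listed. Rt1b{}1666 held 358 unique reads in homozygous and 73 in heterozygous ovaries, a fold of 3.67, which lies below the interval of gypsy12{}2214. GATE{}1713, at 9075 bp on the opposite strand, was listed with up to 10 mappings at 6.87-fold in the authors' deposited table.

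This stretch is known, as background, as part of the 42AB piRNA cluster, which germline cells read on both strands. The lists name cluster strands without coordinates, so the overlap was not computed. The minus strand of 42AB, the strand of gypsy12{}2214, held 1795 unique reads in homozygous and 477 in heterozygous ovaries. The number of unique reads of gypsy12{}2214 equalled 24.8% of that number in homozygous and 8.81% in heterozygous ovaries. With up to 10 mappings, the reads of gypsy12{}2214 equalled in number 50.8% of the strand's 10566 reads in homozygous and 21.0% of its 2185 reads in heterozygous ovaries, as the deposited means and folds imply.

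Whether the reads of gypsy12{}2214 were also counted for the strand was not tested. If all of them were, the strand's other unique reads would be 1350 in homozygous and 435 in heterozygous ovaries, a fold of 2.32 (2.08 to 2.59), against 2.81 (2.54 to 3.12) as listed. With up to 10 mappings the remainder would be 5196 and 1726 reads, a fold of 2.24 (2.12 to 2.37), against 3.60 in the authors' deposited table. Gypsy12{}2214 has a higher fold than the strand, so taking out its reads must lower the strand's fold. That fall was set in advance, and nothing is read from it. The subtraction also takes all reads of the insertion as minus-strand reads, which the sources used here do not state. The plus strand, opposite to gypsy12{}2214, was listed at 2.52 (2.22 to 2.86) with uniquely mapped reads and at 2.83 in the authors' deposited table with up to 10 mappings.

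The 3 families were then set beside the other LTR families. With up to 10 mappings 35 of 59 annotated families of a list of LTR families were listed as higher and 0 as lower, and with uniquely mapped reads 5 were, the other two being gypsy5 and Stalker2. Medians over insertions, taken over folds in the authors' deposited table, ran from 2.41-fold for invader2 to 108.9-fold for blood. McClintock, at 20.3-fold, ranked 10 and gypsy12, at 17.0-fold, ranked 11, while flea, with its single insertion at 10.9-fold, ranked 16 of the 35 listed families. All 3 lay above the median of these family medians, 9.96-fold. For gypsy12 this rests on gypsy12{}3720, with its 4 heterozygous reads. Gypsy12{}2214, which held most of the reads, lay below that median at 8.71-fold (7.92 to 9.60).

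These ranks are not sharp. Roo, next above McClintock, had a median of 22.8-fold in the authors' deposited table, with copies from 12.8-fold to 32.8-fold. Gtwin, next below gypsy12, had 16.6-fold, within the 8.71-fold to 25.3-fold of the gypsy12 copies. Flea stood between diver at 12.1-fold and Stalker at 10.6-fold in the authors' deposited table, both inside the counting interval of flea{}4150, 8.03 to 15.2. Of their annotated copies the 35 families had 1.43% to 81.8% listed, with a median of 15.4%, so McClintock, with 25.0%, lay above and gypsy12 and flea lay below that median.

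**Figure D4:**
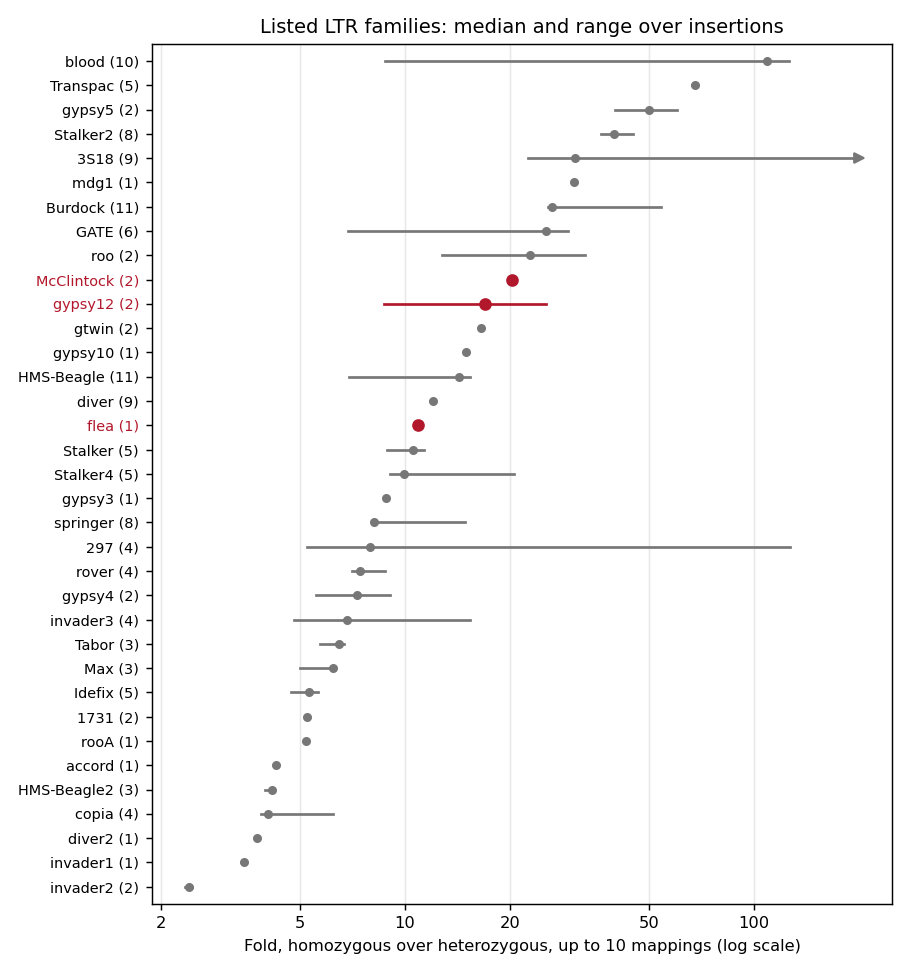
Fold with up to 10 mappings, homozygous over heterozygous (log scale), of each listed LTR family in the authors' deposited table, with the number of listed insertions in parentheses; points are medians, lines run from the lowest to the highest insertion, and the arrow marks a copy listed at 0 in heterozygous ovaries. McClintock (20.3-fold), gypsy12 (17.0-fold) and flea (10.9-fold), in red, lie between invader2 (2.41-fold) and blood (108.9-fold).

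The features nearest to each member in log2 fold with uniquely mapped reads were of several kinds. For McClintock{}1079 and flea{}4150 they were each other, the gene CG11966 at 19.3-fold (9.19 to 48.8) and the telomeric insertion HeT-A{}4795 at 18.9-fold (11.6 to 32.7). For gypsy12{}2214 they were scaRNA:mgU4-65, a small Cajal body RNA, at 7.98-fold, Glt, which encodes the basement membrane protein glutactin, at 7.69-fold, and the DNA transposon insertion transib4{}1579 at 7.44-fold. With 2 libraries, likeness in fold is a single number and says nothing of shared control.

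Genes of fat body and muscle, tissues outside the ovary's own egg chambers, and of the eggshell, which follicle cells make, were also listed. With uniquely mapped reads 4 of 6 fat body genes and 5 of 11 muscle genes were listed as higher, and 5 of 15 eggshell genes as lower. The listed fat body genes summed to 727.2 normalized reads in homozygous and 49.7 in heterozygous ovaries, the muscle genes to 6935 and 2610, and the eggshell genes to 4598 and 14541.5. The lists chose these genes as higher or lower, so the direction of each sum was set in advance. Genes that were not listed are left out, so the sums are not totals of a tissue. The share of all genes that was listed is unknown, as only listed features were given. Of 7 germline and 4 follicle cell genes none was listed, and their levels were not analysed here. The part of tissue makeup in the levels of the 5 insertions was not tested.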

How the data were processed

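Ovary RNA was sequenced in 2 libraries, 1 per genotype, with not-so-random primers on total RNA, per the labels' protocols. The submitters' processing notes name DESeq 1.8.2, bedtools, Bowtie 0.12.8 and TopHat 1.4.1, with build dm3 and no roles. Per the file headers, signal was deposited as read counts normalized per library. The deposited ratio and log2 columns, by their headers and values, set heterozygous over homozygous ovaries, so folds here are their inverse. Raw and adjusted p-values are those the authors deposited, and none was computed here.

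The 4 per-library columns with up to 10 mappings have names that match no sample and were not used. Instead, levels were solved from the deposited mean and fold. Dividing by the value of 1 read gave whole reads, within 0.01 read, for all 151 values of each library with uniquely mapped reads and all 394 with up to 10 mappings. In 134 shared entries no read count was lower with up to 10 mappings, and in 34 both libraries had the same reads. Both pairs of lists were therefore treated as 1 comparison, although no label says so. The sources used here do not state whether insertions were counted by strand. Nor do they state whether a read with several mappings was counted at each place.

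A gene or insertion was counted once, by its highest entry. Intervals are exact (Clopper-Pearson on the conditional binomial, 95%, and Poisson for levels), from SciPy 1.17.1. The code for ratios was tried on simulated independent Poisson counts, the case the intervals assume. That trial says nothing of how well real counts meet it. The intervals leave out all but counting error. Those on counts that include reads with several mappings also take each count as a separate read, which was not tested. Total depth is unknown, as only listed features were given. Positions came from Ensembl release 115 (dm6). Members, families and gene lists were chosen with earlier results of these data known. The text names every member, the 3 features nearest in log2 fold, listed or overlapping features within 10 kb, and LTR families beside the members or at the ends of the order. Other neighbours were named after their values were seen.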

Additional observations from a re-analysis of the deposited data

How the results depend on the processing

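No paired analysis was possible because there was a single library of each genotype, and none could be left out. No alternative fold fell below 1, but a pseudocount cannot bring a fold above 1 below it, so for those alternatives this was set in advance. Of 25 alternative folds, 23 stayed inside the counting interval of the fold as listed, which for flea{}4150 and gypsy12{}3720 is wide. The exceptions came with a pseudocount of 10 normalized reads, which gave 6.20-fold in place of 21.2-fold for flea{}4150 with uniquely mapped reads and 8.70-fold in place of 25.3-fold for gypsy12{}3720 with up to 10 mappings. Both have fewer than 10 normalized reads in the heterozygous library. Without size factors the folds with uniquely mapped reads were 28.0 for McClintock{}1079, 28.3 for flea{}4150 and 10.6 for gypsy12{}2214. The reads with 2 to 10 mappings were taken alone as an alternative chosen after seeing the data. In the authors' deposited table, an adjusted p below 0.01, or a mean of at least 50, left 2 of the 3 insertions with uniquely mapped reads, without flea{}4150, and all 5 with up to 10 mappings. Restricting gypsy12 to the insertion also listed with uniquely mapped reads gave a median of 8.71-fold in place of 17.0-fold, since 1 of its 2 copies is then left. That value lies below the median of the LTR family medians, 9.96-fold.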
